A study of Mus musculus with 18 samples.

Results

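KO-TRAMP and A537T-TRAMP prostates at 10 weeks were compared directly, over 6 of the 18 libraries of the series: 3 KO-TRAMP and 3 A537T-TRAMP. The members were chosen by genotype and age alone, and only genes with a mean of at least 10 normalized reads over the 6 libraries were tested. All mice were males of the strain labelled C56NL/6N and carried 1 copy of TRAMP, a transgene in which the probasin promoter drives SV40 T antigens in prostate epithelium. KO-TRAMP mice were homozygous for a conditional knockout of Elac2 (ELAC2-/-), made with the Pb-Cre driver, whose probasin promoter is active in prostate epithelium, so that stroma, vessels and immune cells in the same tissue keep the gene. A537T-TRAMP mice were homozygous for an edited Elac2 that encodes threonine in place of 1 alanine (A537T) in every cell. Total RNA came from dissected ventral and lateral lobes, with 3 samples numbered as replicates in each line. The column headers of the tables give a library number but no replicate number, so libraries are called by those numbers: 7, 8 and 9 for KO-TRAMP and 4, 5 and 6 for A537T-TRAMP. Levels in WT-TRAMP prostates of the same age (ELAC2+/+, TRAMP, libraries 1, 2 and 3) are given for orientation only.

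ELAC2 is the endonuclease known as RNase Z, which cuts the 3′ trailer from precursor tRNAs in the nucleus and in mitochondria. Mitochondrial transcripts are long polycistronic RNAs in which tRNAs stand between messenger RNAs, so that release of the tRNAs also frees the mRNAs. The comparison asks how losing the enzyme from the epithelium differs, in the transcriptome, from changing 1 of its residues everywhere. The study reports that A537T also lowered the level of ELAC2 protein in prostates of mice without TRAMP. Protein levels are not part of the data compared here. The codon that A537T changes lies in coding exon 17 of 25 of Elac2 on the plus strand of chromosome 11, at bases 64997968 to 64997970 of GRCm38, and is shown in capitals within its reference context at chr11:64997947-64997991:

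Elac2 codon of A537T: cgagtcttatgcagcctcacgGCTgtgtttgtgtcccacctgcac

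The 3 capitals, GCT, encode alanine in an open reading frame of 831 codons. The exon removed by Pb-Cre, exon 8, spans bases 64985563 to 64985621 of the same chromosome. Its length of 59 bases is not a multiple of 3.

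The 6 libraries held between 9454816 and 12667015 recovered reads, and 100% of the deposited values were whole multiples of 1 step. Some libraries stood apart within their own line. Seminal vesicle secretory genes, which mark a neighbouring gland, took 9.05% of the reads in library 5, 1.25% in library 6 and 0.0487% in library 4. In KO-TRAMP they took 0.000906%, 0.0522% and 1.63% in libraries 7, 8 and 9. The 3 WT-TRAMP libraries had at most 0.000459%. Pate4 alone reached 181832 normalized reads in library 5 against 6.96 in library 7. All 8 genes of that list had a lower mean in KO-TRAMP, with a median log2 difference of −4.56, but the lines overlapped for every gene, and without library 7 the median was −2.19 and without library 9 −7.11. The part of the seminal vesicle reads in the other differences was not tested. In a bulk library fewer cells of a type and less RNA per cell cannot be told apart.

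Across the 15720 genes tested, the correlation of log2 levels did not follow the lines. The highest of the 15 pairwise values was between library 7 (KO-TRAMP) and library 4 (A537T-TRAMP), with r = 0.970. Pairs within KO-TRAMP had 0.942 to 0.951, and pairs within A537T-TRAMP had 0.872 to 0.924. Library 5 had the lowest values, 0.867 with library 7 and 0.872 with library 4. These correlations are across genes, which share the same libraries and are not independent.

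**Figure D1:**
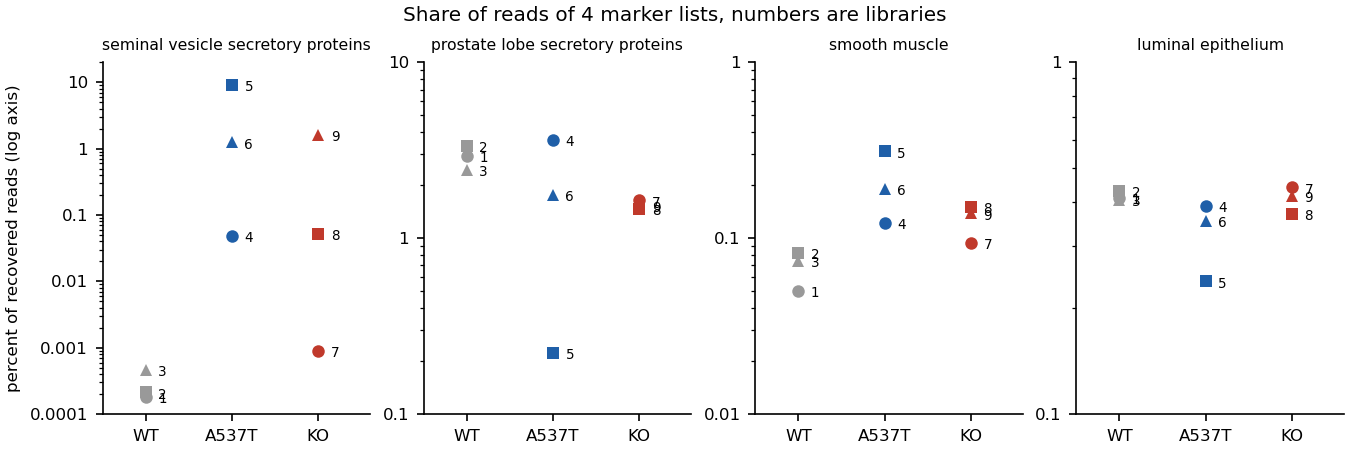
Percent of recovered reads (log axis) taken by 4 marker lists in each library, grouped by line; each point is 1 library and carries its number. Library 5 has 9.05% seminal vesicle reads and 0.224% prostate lobe secretory reads, and libraries 6 and 9 have over 1% of the former.

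Epithelial and prostate identity was present in all 6 libraries. None of the 12 luminal epithelial markers, which include the keratins Krt8 and Krt18, was at 0 in any library, and the list took 0.371% to 0.441% of the reads in KO-TRAMP and 0.238% to 0.391% in A537T-TRAMP. Secretory proteins of the prostate lobes took 1.47% to 1.64% in KO-TRAMP. In A537T-TRAMP they took 3.62% in library 4, 1.76% in library 6 and only 0.224% in library 5.

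The transcript of the targeted gene did not separate the lines. Elac2 (ENSMUSG00000020549, chromosome 11, 64979038 to 65002069) had 291, 254 and 246 normalized reads in libraries 7, 8 and 9 and 334, 269 and 265 in libraries 4, 5 and 6. The ranges overlapped. The mean was 264 ± 24.4 (SD, n = 3) in KO-TRAMP and 289 ± 38.5 (SD, n = 3) in A537T-TRAMP, so that KO-TRAMP had 91.2% of the A537T-TRAMP level. On the log2 scale the difference was −0.13, with a 95% interval from −0.50 to 0.25, and limma gave an adjusted p of 0.989. The two-sided exact permutation test gave 0.5, where 3 libraries against 3 cannot go below 0.1. Scaling by total reads turned the sign, to 0.050. WT-TRAMP libraries had 348, 281 and 297. A read from the remaining exons, or from cells in which Pb-Cre is not active, counts as Elac2, so this level checks neither genotype label.

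No gene passed an adjusted p of 0.05 in limma, which is 0% of the 15720 tested. The smallest adjusted p was 0.114, and 346 genes (2.20%) had an unadjusted p under 0.05, 181 (1.15%) with a higher and 165 (1.05%) with a lower mean in KO-TRAMP. The edgeR quasi-likelihood test also gave 0 calls, with 380 genes (2.42%) at an unadjusted p under 0.05. DESeq2 on the same reads gave 17 calls (0.108%), 9 higher and 8 lower. The 6 libraries fell into 2 groups that did not overlap for 1150 genes (7.32%), 622 (3.96%) with KO-TRAMP above and 528 (3.36%) with KO-TRAMP below. The 95% interval of a difference reached a median of 0.57 to either side on the log2 scale, without adjustment for the number of genes. Over all genes the median difference was −0.01, and 49.0% of the differences were positive. Scaling by total reads moved the median to 0.17 and the positive share to 73.7%, and differences below are given against the median near 0. According to the study, the replicates in every experiment were biological. Where the replicate numbers do not come from separate mice, these p-values measure only the spread between the samples.

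The genes described next were the 12 in each direction with the smallest p among genes whose mean reached 50, whose lines did not overlap and that had a shift between the deposited tables of less than 0.25 on the log2 scale, leaving out gene models named only by a code. The choice fixed their separation, and each had an adjusted p of 0.989 in limma, so their values are a description. The same 24 kept their direction under all 18 alternatives run. Their choice by separation largely fixed this in advance, so it adds no support.

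Abca1 (chromosome 4, 53030787 to 53159895) encodes the pump that exports cholesterol to apolipoprotein A-I. It had 2367, 2562 and 2730 normalized reads in KO-TRAMP and 1071, 1165 and 1727 in A537T-TRAMP. The highest A537T-TRAMP value was thus below the lowest KO-TRAMP value, with a fold of 1.93 and a log2 difference of 0.98 (SE 0.19). The adjusted p was 0.0143 in DESeq2. Srebf1 (chromosome 11, 60199089 to 60222581), the transcription factor that turns on fatty acid synthesis, had 2494, 1812 and 2169 in KO-TRAMP against 1035, 1278 and 1562. Its log2 difference was 0.75 (SE 0.19). Scd2, a desaturase that makes monounsaturated fatty acids, had 17477, 13885 and 15376 against 11398, 8018 and 10327, a log2 difference of 0.66 (SE 0.18). Among the A537T-TRAMP libraries, library 6 was the highest for Abca1 and Srebf1 and library 4 for Scd2.

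Ide (chromosome 19, 37268743 to 37337852) encodes insulin-degrading enzyme. Its levels were 2804, 2428 and 2706 in KO-TRAMP and 1874, 1548 and 1506 in A537T-TRAMP, a fold of 1.61 and a log2 difference of 0.69 (SE 0.13). DESeq2 gave an adjusted p of 0.00860. P4hb, the protein disulfide isomerase of the endoplasmic reticulum, was among the most abundant, with 27186, 21790 and 23657 against 17883, 13870 and 14134 (log2 difference 0.67, SE 0.17). WT-TRAMP libraries had 13499 to 16851, all below the KO-TRAMP libraries. Cat, the catalase that breaks down hydrogen peroxide, had 946 to 973 in KO-TRAMP and 615 to 769 in A537T-TRAMP, a log2 difference of 0.47 (SE 0.13). Anpep, a membrane aminopeptidase, had 3191 to 3664 against 1801 to 2590, and Tfrc, the transferrin receptor of iron uptake, had 618 to 909 against 412 to 511.

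The remaining higher genes were of lower abundance or share sequence. Krt23, a keratin, had 192, 237 and 222 normalized reads in KO-TRAMP and 90.5, 109 and 147 in A537T-TRAMP. Dazl, known as an RNA-binding protein of germ cells, had 97.4, 68.2 and 76.3 against 41.7, 34.7 and 33.4. Xlr3b, from a cluster of X-linked lymphocyte-regulated genes, had 187, 163 and 39.0 against 7.10, 16.8 and 3.71, a log2 difference of 3.61 (SE 0.73), with an adjusted p of 0.000282 in DESeq2. Its WT-TRAMP values ran from 2.13 to 330, a wider range than that between the lines. Of its 31-base words, 58.5% also occur in Xlr3a, so its reads may belong to a neighbour. Summed over Xlr3a, Xlr3b and Xlr3c the levels were 458, 196 and 399 against 48.8, 88.5 and 14.8, again without overlap. WT-TRAMP sums were 105, 779 and 119.

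**Figure D2:**
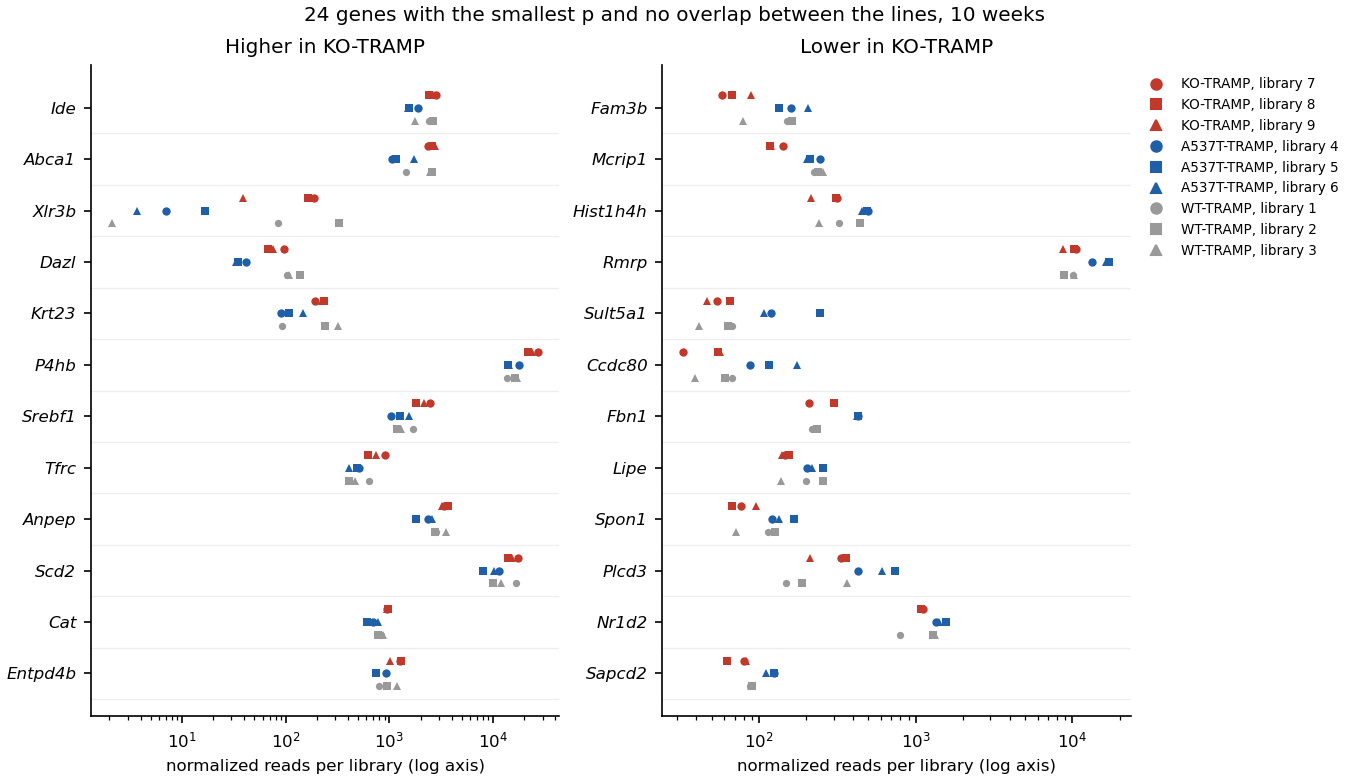
Normalized reads per library (log axis) of the 12 higher and 12 lower genes; red, blue and grey points are KO-TRAMP, A537T-TRAMP and WT-TRAMP, with 1 symbol per library. For every gene the 3 red points lie on the same side of the 3 blue points, which is the condition by which the genes were chosen, and WT-TRAMP points often spread over both.

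Of the 12 genes chosen with a lower level in KO-TRAMP, the most abundant was Rmrp (ENSMUSG00000088088, chromosome 4, 43492788 to 43493058). Rmrp is the RNA of RNase MRP, a ribonucleoprotein that cuts precursor ribosomal RNA. It had 10464, 10233 and 8688 normalized reads in KO-TRAMP and 13329, 17176 and 16395 in A537T-TRAMP. These ranges did not overlap, the fold was 0.627, and the log2 difference was −0.67 (SE 0.16), with an adjusted p of 0.0258 in DESeq2. A second gene ID of the same name shares 100% of its sequence. Summed over both IDs the levels were 11520, 10812 and 9003 against 14255, 19008 and 17916. WT-TRAMP sums, from 9670 to 10760, lay on the KO-TRAMP side.

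Fbn1, the microfibril protein fibrillin-1, had 210, 301 and 302 in KO-TRAMP and 430, 431 and 424 in A537T-TRAMP, where the SD was only 3.71. Its log2 difference was −0.68 (SE 0.18). Ccdc80, a secreted matrix-binding protein, had 33.1, 54.9 and 56.8 against 87.8, 116 and 176, a log2 difference of −1.35 (SE 0.34). Spon1, the extracellular protein F-spondin, had 67.2 to 95.8 against 122 to 166. For both Fbn1 and Ccdc80 the WT-TRAMP mean was nearer to KO-TRAMP.

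Fam3b, a secreted cytokine-like protein known from pancreatic islets, had 58.3, 67.2 and 89.6 in KO-TRAMP and 161, 135 and 206 in A537T-TRAMP (log2 difference −1.22, SE 0.25). Here WT-TRAMP values were 151, 163 and 78.7, so that 2 of 3 were on the A537T-TRAMP side. Mcrip1, a small regulator of transcriptional corepression, had 118 to 144 against 203 to 244, with all 3 WT-TRAMP libraries between 224 and 256. Sult5a1, a sulfotransferase family member, had 47.0 to 65.3 against 108 to 244, and its fold of 0.353 was the lowest of the 12. Plcd3, a phospholipase C, had 213 to 360 against 430 to 734. Nr1d2, a nuclear receptor of the circadian clock, had 1075 to 1110 against 1339 to 1552, the smallest difference of the 12 at −0.39 (SE 0.11). Lipe, the hormone-sensitive lipase, had 141 to 155 against 202 to 256, and Sapcd2, linked to spindle orientation, had 62.5 to 82.5 against 111 to 126. Hist1h4h, a histone H4 gene, had 216 to 314 against 456 to 493. It shares 44.8% of its sequence words with Hist1h4j and its value shifted by −0.18 between the tables, so it is uncertain.

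On the log2 scale, WT-TRAMP means were placed between the means of the 2 lines for 11 of the 12 higher and 8 of the 12 lower genes. On that scale they were nearer to KO-TRAMP for 8 of the higher and 9 of the lower genes. The WT-TRAMP libraries were not used to choose the genes and did not enter the main test. However, genes chosen for separated KO-TRAMP and A537T-TRAMP levels leave a wide gap, in which a WT-TRAMP mean can fall by that choice alone. Neither count was set beside that of all genes tested, so both are a description. Which line had moved away from WT-TRAMP was not tested.

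The other DESeq2 calls fell outside the naming rule and were chosen after their values were seen. Several of these calls, without overlap and at or near 0 in A537T-TRAMP, lay near one another on chromosome 14. Not all genes at 0 in the 3 A537T-TRAMP libraries were there, as Rpl35a-ps3, given below, lies on chromosome 17. Gm20236 (69277601 to 69282140) had 244, 68.2 and 267 normalized reads in KO-TRAMP and 0 in all 3 A537T-TRAMP libraries. Against a floor of 3 reads per library, the reads assigned to it were at least 58.1-fold higher in KO-TRAMP. That bound covers counting and not the assignment of reads. Summed with its identical copy Gm37094, the fold was 2.06. Gm16867 (69363504 to 69503362) had 67.8, 54.0 and 99.3 against 0, 0 and 1.24. Gm38378 (69395504 to 69397771) had 101, 61.5 and 84.3 against 0, 2.39 and 0, and Gm27177 (69582164 to 69683286) had 177, 118 and 106 against 5.32, 5.98 and 0. WT-TRAMP libraries were split, with Gm20236 at 195 and 305 in libraries 1 and 2 and 0 in library 3, while Gm16867 was 0 in library 1 and 120 and 161 in libraries 2 and 3.

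These genes lie in a stretch of near-identical copies, which limits how a read can be assigned. Gm20236 shares 100% of its 31-base words with Gm37094, which had 49.6, 274 and 0 in KO-TRAMP and 161, 130 and 146 in A537T-TRAMP. Summed over that pair the levels were 293, 342 and 267 against 161, 130 and 146, a fold of 2.06. Entpd4 and Entpd4b, which encode a Golgi nucleoside diphosphatase and also share 100%, both had higher levels in KO-TRAMP without overlap. Their sum was 2648, 2499 and 2438 against 1898, 1328 and 1801, a fold of 1.51, and WT-TRAMP sums were 1905, 2705 and 2719. Summed over Gm16867 and Gm27177 the levels were 245, 172 and 205 against 5.32, 5.98 and 1.24, so the near absence in A537T-TRAMP remained for that pair. In WT-TRAMP this sum was 2.54 in library 1 and 244 and 232 in the others. Gm38378 shares 100% of its words with Gm37513. Summed over that pair the levels were 101, 61.5 and 84.3 against 0, 4.79 and 0. WT-TRAMP sums of the pair were 0, 64.4 and 59.6. Of the flanking genes, Chmp7, an endosomal sorting protein, had 324 to 366 against 342 to 504, which overlapped.

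**Figure D3:**
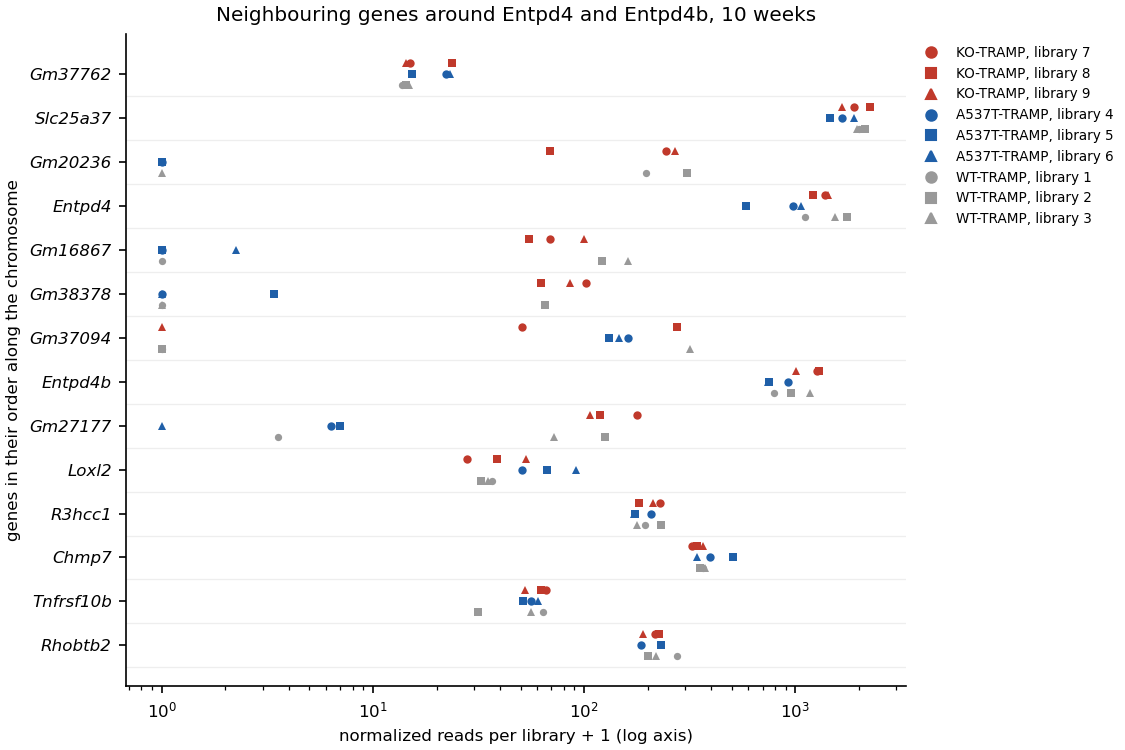
Normalized reads plus 1 per library (log axis) of neighbouring genes in their order along chromosome 14; red, blue and grey points are KO-TRAMP, A537T-TRAMP and WT-TRAMP libraries. Gm20236, Gm16867, Gm38378 and Gm27177 have A537T-TRAMP points at or near 0 reads. Entpd4 and Entpd4b, among them, are without overlap, while Gm37094 and the genes outside this stretch overlap.

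A second set of DESeq2 calls, all lower in KO-TRAMP, were transcripts that share sequence with other genes. Gm42427 (chromosome 5, 44137980 to 44143271) had 115, 29.3 and 11.5 normalized reads in KO-TRAMP and 531, 595 and 864 in A537T-TRAMP. AC158975.2, of whose words 89.2% occur in Gm42427, had 175, 193 and 106 against 670, 596 and 812. Gm46223, which shares 90.1% with Gm42427, had 2.61, 0 and 0 against 27.5, 64.6 and 80.4. Gm4316, with 13.9% of its words in Gm42427, had 150, 190 and 107 against 619, 1073 and 592. Gm42031, which shares 60.9% with Gm43305, was the most abundant, with 2620, 3146 and 1113 against 7199, 40954 and 27822. In each of these the 3 A537T-TRAMP libraries were above the 3 KO-TRAMP libraries, but reads cannot be assigned to a single locus with certainty.

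The remaining calls were single genes. Pkd1l1, a polycystin family member, had 9.57, 0 and 0.887 in KO-TRAMP and 116, 62.2 and 30.9 in A537T-TRAMP. Stc2, the secreted glycoprotein stanniocalcin-2, had 32.2, 31.2 and 34.6 against 208, 291 and 43.3. Gm37376 (chromosome 19, 5801941 to 5802393) had 188, 209 and 142 against 76.3, 69.4 and 47.0. Rpl35a-ps3, a pseudogene identical over its length to Rpl35a-ps2, had 26.1, 20.8 and 24.8 against 0 in all 3 libraries. Summed over both copies its levels were 26.1, 20.8 and 24.8 against 24.8, 0 and 27.2, which overlap.

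The lists of genes by pathway and cell type are described by counts and medians beside those of all genes, where the median was −0.01, 49.0% were positive, and the lines were without overlap for 3.96% with KO-TRAMP above and 3.36% with KO-TRAMP below. The plot of list medians shows all 30 lists with the range left when 1 library at a time is removed.

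**Figure D4:**
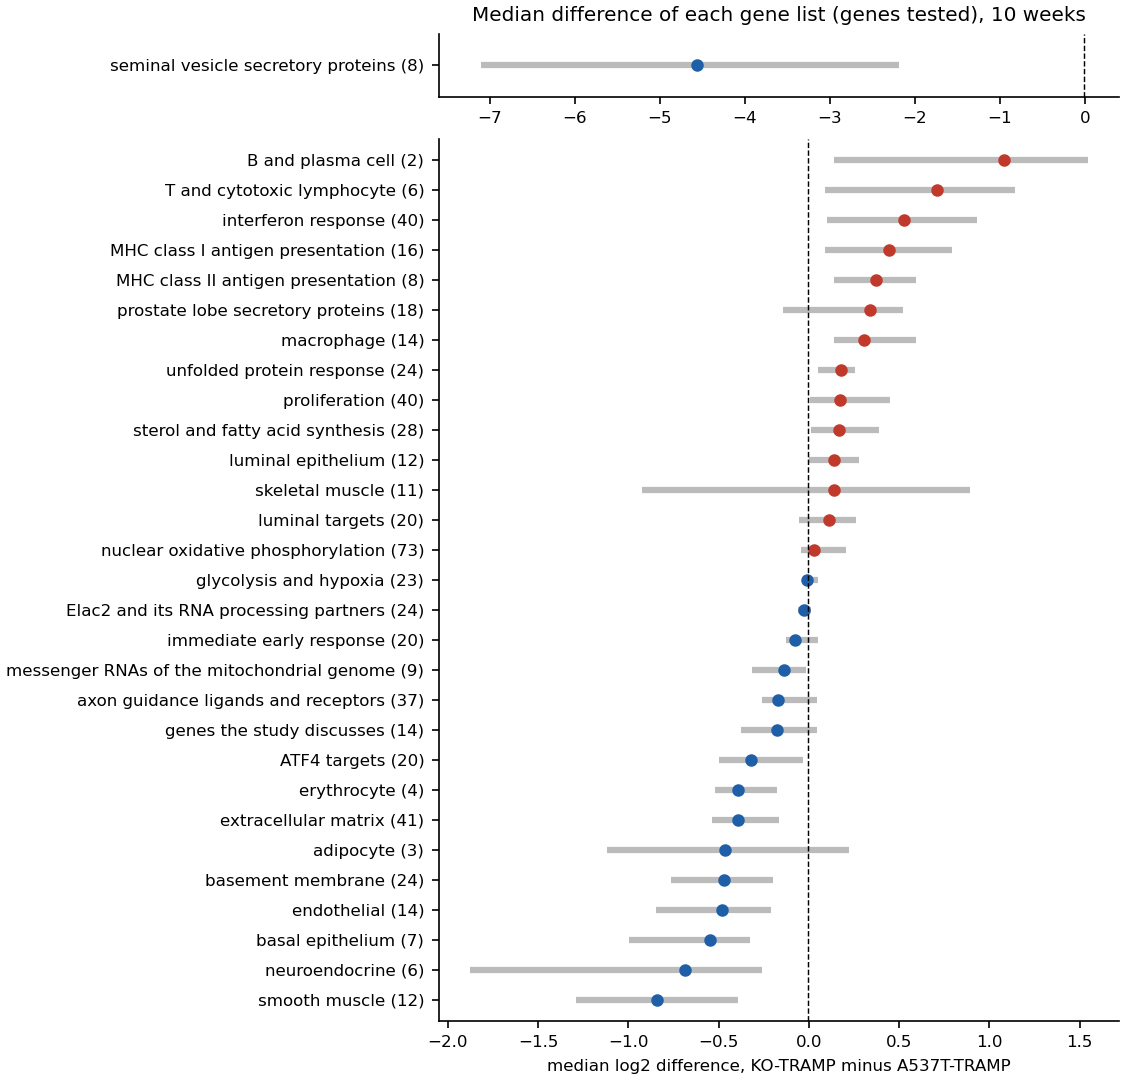
Median log2 difference of each gene list, KO-TRAMP minus A537T-TRAMP, with the number of genes tested in brackets; points are medians over the 6 libraries and grey bars run from the lowest to the highest median without 1 library. The dashed line is the median of all genes (−0.01); seminal vesicle genes (−4.56) have their own axis.

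The RNA processing genes around Elac2 lay at the level of all genes. Of 24 members tested, 11 had a positive difference and the median was −0.03. Fastk, a regulator of mitochondrial RNA, was the only member without overlap, with 452, 437 and 471 normalized reads in KO-TRAMP and 610, 531 and 563 in A537T-TRAMP (log2 difference −0.32, SE 0.12, limma adjusted p 0.989). Ago2, the argonaute that binds microRNAs, had 1550, 1577 and 939 against 1100, 1998 and 1982, and Ptcd1, a mitochondrial RNA-binding protein, had 164 to 216 against 194 to 269. Both overlapped. For 4 proteins that the study discusses the intervals included 0: Nono and Sfpq, the paraspeckle proteins, had differences of 0.13 (−0.16 to 0.42) and −0.03 (−0.31 to 0.26). For Slirp, which stabilizes mitochondrial mRNAs, it was 0.00 (−0.72 to 0.73). Hsd17b10, a subunit of mitochondrial RNase P, had 0.21 (−0.34 to 0.77). Nono shares 16.8% of its words with Gm8806.

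Mitochondrial mRNAs did not separate the lines. Of 13 in the list, 9 were found among the deposited genes and tested. Of these 9, 3 had a positive difference and none was without overlap. The median was −0.14, with a range from −0.31 to −0.02 without 1 library. Processing of the precursor transcripts was not tested. The cytochrome oxidase subunit mt-Co3 had 22958, 22524 and 29828 normalized reads in KO-TRAMP and 24047, 34267 and 28407 in A537T-TRAMP. The complex I subunit mt-Nd5 had 3860, 7773 and 5306 against 3671, 9861 and 8188, and mt-Nd3 had 1867 to 2947 against 2329 to 3014. Library 4 had the lowest level of mt-Nd6, the subunit encoded on the light strand, at 348, while the other 5 had 582 to 976. Scaling by total reads turned the median to 0.04.

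Nuclear genes of oxidative phosphorylation had a median of 0.03 over 73 genes, 48 of them positive. Cyc1, the cytochrome c1 of complex III, was the single member without overlap, with 500, 379 and 400 normalized reads against 344, 360 and 308 (log2 difference 0.33, SE 0.16, limma adjusted p 0.989). Uqcrq, also of complex III, had 119 to 185 against 174 to 199. The complex I subunits Ndufb2 and Ndufs3 had differences of 0.26 and 0.24 with overlap. The list's median was negative without library 5, 6 or 7, at −0.03, −0.05 and −0.03, so it held no direction.

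Unfolded protein response genes encode chaperones and foldases of the endoplasmic reticulum, the sensors of misfolded protein and factors of its degradation. Of 24 unfolded protein response genes, 15 had a positive difference, 4 were without overlap with KO-TRAMP above and none with KO-TRAMP below; the median was 0.18 (0.05 to 0.25 without 1 library). The 4, against 3.96% of all genes apart in that direction, were foldases or chaperones of the endoplasmic reticulum lumen: P4hb, given above, Pdia4, Pdia3 and Hsp90b1. Pdia4 had 4976, 3845 and 4350 normalized reads against 3487, 3385 and 2894 (log2 difference 0.43, SE 0.14). Pdia3 had 6583 to 6937 against 4690 to 5801, and Hsp90b1, the chaperone GRP94, had 11122 to 13090 against 7622 to 10931. Hspa5, the chaperone BiP, had 15281, 10346 and 14584 against 13208, 10119 and 7594 and overlapped. None of these had a limma adjusted p under 0.989.

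Negative differences included that of Dnajb9, a BiP cochaperone, with 442, 545 and 452 in KO-TRAMP and 803, 1290 and 446 in A537T-TRAMP (log2 difference −0.69, SE 0.36). Syvn1, a ubiquitin ligase of endoplasmic reticulum degradation, had 513 to 774 against 721 to 1174. The stress sensors Ern1 and Eif2ak3 (PERK) had differences of −0.38 and −0.32, and the third sensor, Atf6, had −0.04. Xbp1, the transcription factor that Ern1 activates by splicing, had 2386 to 2789 against 2246 to 3215. These 6 genes overlapped between the lines.

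The promoters of this list were searched because its members share a known control element. The endoplasmic reticulum stress element, CCAAT and CCACG with 9 bases of any kind between them, read on both strands, occurred in 8 of the 21 members with a RefSeq promoter, from 250 bases before to 50 bases after the gene start. It occurred in 0.119% of all 32851 promoters. Hsp90b1 (minus strand, chr10:86705395-86705694, GRCm38.p6) and Creld2 (plus strand, chr15:88819396-88819695) are shown 5′ to 3′ on the gene's strand, with each match in capitals; a match on the other strand reads as its reverse complement.

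Hsp90b1: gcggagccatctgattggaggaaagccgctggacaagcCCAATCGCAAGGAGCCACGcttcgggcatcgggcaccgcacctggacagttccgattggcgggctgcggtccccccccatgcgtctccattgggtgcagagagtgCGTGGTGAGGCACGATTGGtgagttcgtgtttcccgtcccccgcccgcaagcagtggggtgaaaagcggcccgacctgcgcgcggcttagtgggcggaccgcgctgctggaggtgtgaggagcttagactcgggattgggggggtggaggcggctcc
Creld2: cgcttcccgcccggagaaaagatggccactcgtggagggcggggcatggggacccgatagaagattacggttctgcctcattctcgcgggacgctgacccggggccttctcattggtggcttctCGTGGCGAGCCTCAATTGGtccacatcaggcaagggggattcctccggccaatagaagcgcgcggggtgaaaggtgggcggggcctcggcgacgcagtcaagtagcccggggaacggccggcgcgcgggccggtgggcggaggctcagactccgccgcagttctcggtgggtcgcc

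Creld2, a secreted endoplasmic reticulum protein, had 1006, 794 and 986 normalized reads in KO-TRAMP and 849, 668 and 519 in A537T-TRAMP (log2 difference 0.47, SE 0.20). Syvn1, whose difference was −0.55, also held the element. A match is a description of these letters and no test of a factor's binding.

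ATF4 targets, a set of amino acid and stress genes, had a median of −0.32, with 4 of 20 positive. Cebpb, a transcription factor, was the only member without overlap, with a log2 difference of −0.69 (SE 0.42) and the lowest level in library 8. Members went both ways: Nupr1, a stress-response regulator, had 482, 285 and 615 against 860, 61.0 and 263 (log2 difference 0.86, SE 0.87). Pycr1, the last enzyme of proline synthesis, had a difference of 0.53 and Ddit4, an inhibitor of the kinase mTORC1, −0.55. Without library 5 the list's median was −0.04.

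Sterol and fatty acid synthesis genes had a median of 0.16, with 21 of 28 positive and 3 without overlap, all with KO-TRAMP above (3.96% of all genes): Acaca, Srebf1 and Scd2. The first of them, the carboxylase that starts fatty acid synthesis, had 1158 to 1185 normalized reads in KO-TRAMP and 951 to 1106 in A537T-TRAMP, a log2 difference of 0.20 (SE 0.11). The elongase Elovl6 went the other way, with 11.3, 36.0 and 106 against 23.9, 607 and 251, highest in library 5. Without libraries 5 and 9, the library of each line with the most seminal vesicle reads, the median was −0.03. The sterol regulatory element, ATCACC followed directly by CCAC, occurred in none of the 25 RefSeq promoters of 20 members and in 0.0913% of all promoters.

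Of the interferon response genes, 40 of 40 had a positive difference, with a median of 0.52. No member was without overlap and none had an unadjusted p under 0.05. Oas3 and Oas2, which make the 2-5A signal that activates RNase L, had the largest differences. Oas3 had 421, 180 and 302 normalized reads in KO-TRAMP and 258, 15.6 and 87.8 in A537T-TRAMP (log2 difference 1.98, SE 0.92, limma adjusted p 0.989). Oas2 had 819, 482 and 915 against 739, 41.9 and 323 (1.71, SE 0.95). Irf7, the transcription factor that amplifies interferon production, had 1683, 1101 and 1517 against 1376, 245 and 953, and Ifi44 had 783, 316 and 603 against 633, 76.6 and 352. For all 4 the lowest value was in library 5, while library 4 was within the KO-TRAMP range.

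That order held for the list as a whole. Its mean log2 level was 8.87, 8.26 and 8.69 in libraries 7, 8 and 9 and 8.85, 6.94 and 8.14 in libraries 4, 5 and 6. Without library 5 the median was 0.10, and without library 4 it was 0.93. WT-TRAMP libraries had 9.50, 9.23 and 8.44. The plot of list levels shows the libraries of both lines beside WT-TRAMP.

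**Figure D5:**
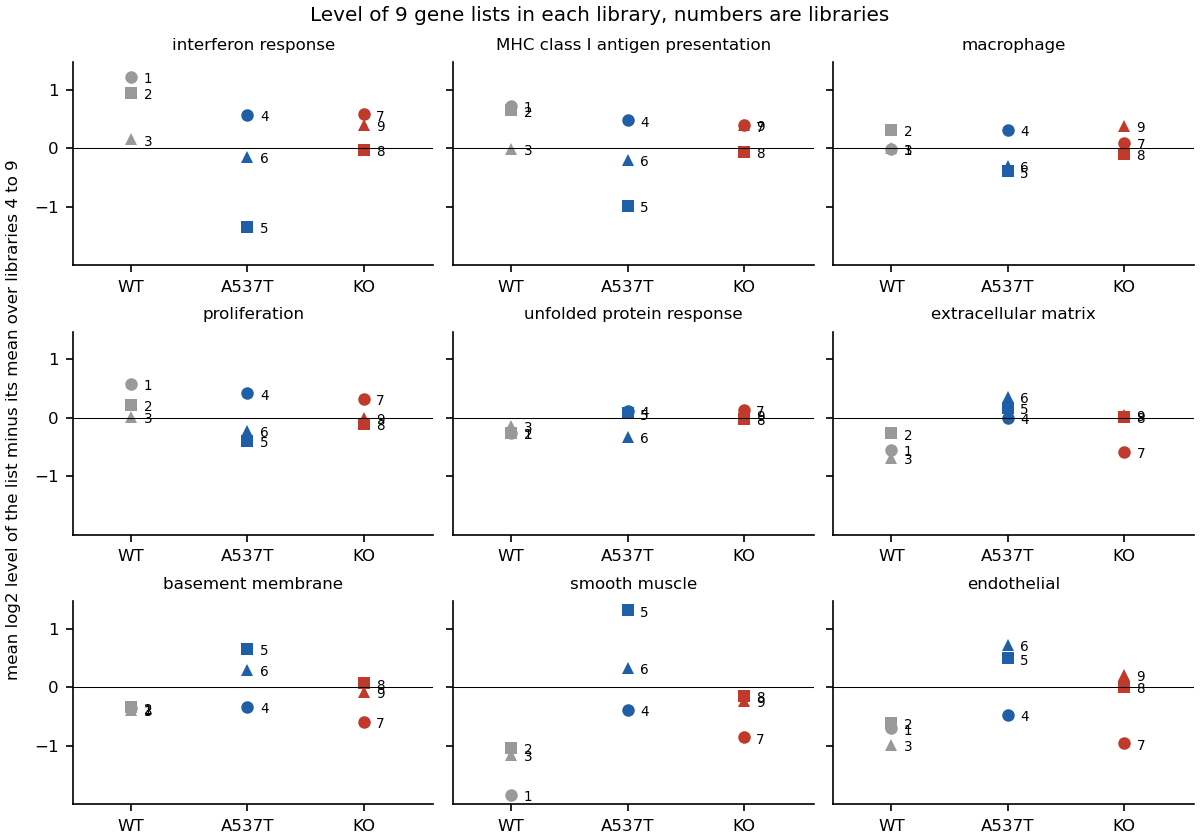
Mean log2 level of 9 gene lists in each library, minus the list's mean over libraries 4 to 9; each point is 1 library with its number, in grey for WT-TRAMP, blue for A537T-TRAMP and red for KO-TRAMP. Library 5 is lowest for interferon and MHC class I genes and highest for smooth muscle, and library 4 lies within the KO-TRAMP range for interferon and smooth muscle genes.

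The promoters of the interferon list were searched for the core of the interferon-stimulated response element, a pair of GAAA with 2 bases between them, on both strands. It occurred in 18 of 33 RefSeq promoters, for 18 of 29 members, against 3.44% of all promoters. Oas3 (minus strand, chr5:120777610-120777909) and Oas1a (minus strand, chr5:120907476-120907775) are shown with the element in capitals, because the Oas family had some of the largest differences of the list; in Oas1a overlapping matches form a single run.

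Oas3: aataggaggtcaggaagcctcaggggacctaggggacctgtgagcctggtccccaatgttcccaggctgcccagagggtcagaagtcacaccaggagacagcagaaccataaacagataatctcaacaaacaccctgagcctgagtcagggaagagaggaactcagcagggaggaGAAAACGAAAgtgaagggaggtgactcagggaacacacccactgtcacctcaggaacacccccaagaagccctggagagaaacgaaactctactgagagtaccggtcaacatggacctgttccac
Oas1a: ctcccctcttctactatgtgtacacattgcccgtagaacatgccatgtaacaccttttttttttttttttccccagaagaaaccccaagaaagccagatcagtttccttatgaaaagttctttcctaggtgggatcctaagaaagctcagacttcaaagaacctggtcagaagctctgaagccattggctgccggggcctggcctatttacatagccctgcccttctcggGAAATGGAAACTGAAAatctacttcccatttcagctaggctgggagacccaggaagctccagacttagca

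Both antigen presentation lists, like the interferon list, had their lowest mean level in library 5 and the next lowest in library 6. MHC class I genes had a median of 0.44, with 15 of 16 positive and no member without overlap. The class I molecule H2-Q7 had 1755, 1074 and 2062 normalized reads in KO-TRAMP and 1897, 182 and 836 in A537T-TRAMP, and the immunoproteasome subunit Psmb9 had 427, 284 and 417 against 486, 117 and 234. H2-Q7 belongs to a multigene family, so its count is uncertain. Without library 5 the list's median was 0.09. MHC class II genes had a median of 0.37, with 7 of 8 positive. It was 0.14 without library 9 and 0.20 without library 6. H2-Aa, a class II chain, had 356, 361 and 496 against 349, 258 and 171, the only member of its list without overlap (log2 difference 0.68, SE 0.28, limma adjusted p 0.989). Cd74, the invariant chain, had 502 to 875 against 313 to 579.

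Markers of immune cells had low levels. Macrophage genes had a median of 0.30, with 11 of 14 positive, and 1606 to 2375 summed normalized reads in KO-TRAMP against 1334 to 2113 in A537T-TRAMP, with no marker at 0. C1qb, a complement subunit made by macrophages, had 154, 144 and 224 against 183, 86.2 and 101. Only 6 of 15 T and cytotoxic lymphocyte genes reached the minimum mean, all 6 with a positive difference and a median of 0.71. Without library 5 the median of these 6 was 0.29, and 0.09 with the minimum mean reapplied. Summed over all 15 genes, their reads were 136 to 180 against 50.3 to 186. Nkg7, a granule protein, had 11.5 to 18.9 against 7.42 to 8.87 and was the only lymphocyte gene without overlap. Of 12 B and plasma cell genes 2 were tested, and Ighm had 40.9, 129 and 55.9 against 53.2, 34.7 and 44.5. Of 5 erythrocyte genes 4 were tested, with a median of −0.39 and 1 positive, at 0.43. The 2 without overlap, Hba-a1 and Hbb-bs, had KO-TRAMP below (3.36% of all genes), as with Hbb-bs at 32.8 to 41.8 against 43.1 to 64.3. Summed over all 5 genes, the normalized reads were 98.4 to 150 against 112 to 173, which overlapped.

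No extracellular matrix gene passed the test, and 34 of 41 overlapped between the lines. Of the 41, 33 had a negative difference, 6 were without overlap with KO-TRAMP below (3.36% of all genes) and 1 with KO-TRAMP above (3.96% of all genes), and the median was −0.39 (−0.54 to −0.17 without 1 library). The fibrillar collagen Col3a1 had 995, 1577 and 1601 normalized reads in KO-TRAMP and 1660, 2691 and 3060 in A537T-TRAMP (log2 difference −0.81, SE 0.28, limma adjusted p 0.989). Col1a1 had 467, 851 and 654 against 862, 1100 and 1173, and Col6a2, a chain of microfibrillar collagen, had 170 to 287 against 310 to 456. Fbn1, given above, Loxl1 and Thbs2 were the others. Library 7 was the lowest of the 6 in each of them except Thbs2, where library 9 was. Timp2, an inhibitor of matrix metalloproteinases, was the exception, with 1365, 1419 and 1375 against 1033, 628 and 1170. Loxl2, a lysyl oxidase that crosslinks collagen, overlapped and shares 43.3% of its sequence words with Gm21451.

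Basement membrane genes had a median of −0.47, with 21 of 24 negative, 1 without overlap with KO-TRAMP below and 1 with KO-TRAMP above. The former, Col4a2, a chain of its collagen network, had 311, 403 and 336 normalized reads against 434, 584 and 524. Among members with a mean of at least 50, Nid1, Lamb1, Col18a1 and Col4a6 had the lowest differences, between −0.77 and −0.70, and overlapped. Col4a6, a further collagen IV chain, had 69.6, 798 and 226 against 85.2, 938 and 681, so that libraries 7 and 4 were both far below the other 4.

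Smooth muscle genes had the lowest median of the cell type lists other than seminal vesicle, −0.84, with 0 of 12 positive. The 3 without overlap all had KO-TRAMP below (3.36% of all genes). Des, the muscle intermediate filament desmin, had 525, 669 and 639 normalized reads in KO-TRAMP and 689, 1455 and 1114 in A537T-TRAMP (log2 difference −0.77, SE 0.27). Acta2, smooth muscle actin, had 1915, 2257 and 2670 against 2788, 5972 and 2819, and Tagln had 1287 to 1617 against 1659 to 3176. In Actg2, Cnn1, Mylk and Myocd, which overlapped, library 5 was the highest of the 6, as with Actg2 at 1459 against 169 to 506 in the others. Summed smooth muscle reads were 9993 to 16500 in KO-TRAMP, 13718 to 43128 in A537T-TRAMP and 5542 to 9378 in WT-TRAMP, with no marker at 0 in any library. Without library 5 the median was −0.39. The part of this stroma in the matrix genes was not tested.

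Endothelial genes had a median of −0.48, with 0 of 14 positive and none without overlap. Pecam1 had 44.4, 71.0 and 78.0 normalized reads against 59.4, 103 and 110, and Eng had 27.0, 44.5 and 47.9 against 29.3, 126 and 71.7. Basal epithelial genes had a median of −0.55, with 1 of 7 positive. Krt5 had 126, 93.7 and 256 against 125, 264 and 493, and Trp63, the transcription factor of basal cells, had 81.8 to 181 against 85.2 to 333. In these lists libraries 4 and 7 were the lowest of their line for Pecam1, Eng and Trp63.

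Luminal epithelial genes had a median of 0.14, with 9 of 12 positive, which was −0.00 without library 5. Cdh1, E-cadherin, had 6253, 5989 and 6433 normalized reads against 5052, 4131 and 5334, and Cldn3, a tight junction protein, had 822, 748 and 819 against 917, 1127 and 977. Both were without overlap, in opposite directions. Luminal target genes had a median of 0.11, with 13 of 20 positive, which was −0.05 without library 5. Mme, the membrane metalloendopeptidase, had 15036, 15794 and 14122 against 13782, 8905 and 12477. Pbsn, whose promoter drives both TRAMP and Pb-Cre, had 417, 1981 and 763 against 1245, 1690 and 1421. Its ranges overlapped, and library 7 had the lowest level.

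Secretory proteins of the prostate lobes had a median of 0.34, with 12 of 18 positive, which became −0.14 without library 5. With all 6 libraries, the list's median was −0.01 in edgeR and −0.01 in DESeq2. Wfdc3, a whey acidic protein family member, was without overlap, with 259, 212 and 131 normalized reads in KO-TRAMP and 2005, 337 and 314 in A537T-TRAMP. Pigr, the receptor that carries IgA across epithelium, had 11273, 9797 and 11639 against 12954, 1054 and 6418. Defb42, a defensin, had 0, 12.3 and 421 against 36.4, 5003 and 58.1, highest in libraries 5 and 9, which also had the highest seminal vesicle shares.

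Neuroendocrine genes were low and uneven. Of 12 genes 6 were tested, with 0 positive and a median of −0.69, but edgeR gave a median of 0.37, the opposite sign. Library 8 had the highest level of Snap25, a synaptic protein, at 135, and of Chgb, a granule protein, at 65.3, while libraries 7 and 9 had at most 2.66 for both. Skeletal muscle genes had a median of 0.14, and adipocyte genes, with 3 of 12 tested, −0.47. Neither held its sign: the former was −0.93 without library 9 and −0.39 without library 5, and the latter 0.22 without library 7 and 0.12 without library 4. Myh4, a fast muscle myosin, was at 964 in library 9 and 571 in library 6, and at most 10.4 in the other 4. Lpl, lipoprotein lipase, had 214 to 254 against 185 to 235.

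Cell cycle and immediate early genes gave mixed values. Of 40 proliferation genes 25 had a positive difference, with a median of 0.17 (0.01 to 0.45 without 1 library) and 3 without overlap, all with KO-TRAMP above, where all genes had 3.96%. Mcm3, a subunit of the replicative helicase, had 1037, 838 and 848 normalized reads against 710, 431 and 762, and the S-phase transcription factors E2f1 and E2f8 had 204 to 281 against 177 to 198 and 154 to 183 against 111 to 131. The mitotic activator Cdc20 had 211, 113 and 168 against 425, 170 and 182. Immediate early genes had a median of −0.08, with 9 of 20 positive, 2 without overlap on each side. Fos had 48.3 to 98.4 against 34.6 to 45.7 and Klf6 839 to 1039 against 775 to 837, while Ier3 had 31.2 to 39.0 against 58.1 to 68.2 and Jun 173 to 221 against 224 to 270. Glycolysis and hypoxia genes had a median of −0.01, with 10 of 23 positive and none without overlap. Hk2, a hexokinase, had a difference of 0.35 and Slc2a1, the glucose transporter GLUT1, −0.33.

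Genes that the study discusses were counted as a list of their own. The study picked these genes for their changes in the same mouse lines, so the list is no independent evidence of a direction. Those changes were seen in older mice, with each line set against its own control. Age and contrast thus differ from those here, and the values do not check the study's directions. Nox4, also on the list, did not reach the minimum mean. Of 14 tested, 3 were positive, with a median of −0.18. Sema6a, a transmembrane semaphorin, was the only member without overlap, with 125, 138 and 135 normalized reads in KO-TRAMP and 75.4, 77.8 and 119 in A537T-TRAMP (log2 difference 0.58, SE 0.23, limma adjusted p 0.989). Its value shifted by −0.16 between the deposited tables. Vcan, the proteoglycan versican, had 160, 157 and 271 against 347, 261 and 260, and Igf1, the growth factor, had 123, 176 and 142 against 219, 207 and 172. Both overlapped narrowly, with differences of −0.59 (SE 0.25) and −0.45 (SE 0.20).

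Single libraries decided several of the others. Cdo1, the enzyme that oxidizes cysteine, had 395, 384 and 3078 in KO-TRAMP and 304, 25454 and 1705 in A537T-TRAMP, high where the seminal vesicle share was high, and its difference of −1.61 became 0.11 without library 5. Myb, the proto-oncogene transcription factor, had 749, 469 and 580 against 873, 106 and 443, and its difference of 0.77 became −0.08 without library 5. Tns1, a focal adhesion protein, had 1227, 3269 and 1917 against 1593, 5660 and 3949. Sema5a had 362, 704 and 585 against 240, 1704 and 806, and Sparc, a collagen-binding matrix protein, had 784, 1215 and 1248 against 1316, 1434 and 1068. Sema3c had 291 to 415 against 319 to 451 and Thsd4, a microfibril-associated protein, had a difference of −0.06 (SE 0.72). Sema3a, the netrin receptor Unc5c, Runx1t1 and Pcdh17 had at most 40.8 in every library, and their differences were 0.47, −0.10, −0.03 and −0.26 with standard errors of 0.47 to 0.78.

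Axon guidance ligands and receptors, the family to which the semaphorins belong, had a median of −0.17, with 16 of 37 positive and 3 without overlap, all with KO-TRAMP above (3.96% of all genes): Sema6a, Sema4f and the netrin receptor Neo1. The median turned to 0.046 without library 7, 0.024 without library 6 and 0.0075 with total-read scaling. Neo1 had 999 to 1005 normalized reads in KO-TRAMP and 925 to 943 in A537T-TRAMP, a log2 difference of 0.10 (SE 0.10). Unc5b, another netrin receptor, had 48.7, 99.4 and 144 against 24.8, 1011 and 457, and the semaphorin receptors Plxna2 and Plxnb1 were highest in library 5 at 1018 and 1660. Ntn1, a netrin, had 23.5 to 70.1 against 30.2 to 116.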

How the data were processed

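RNA-seq libraries of total RNA from 10-week-old ventral and lateral prostate were compared, 3 of KO-TRAMP and 3 of A537T-TRAMP. The authors trimmed reads with Trim Galore 0.4.1, aligned them to GRCm38.p6 with STAR 2.7.3a, estimated strand-aware gene counts with Salmon, and deposited DESeq2-normalized counts (signal: estimated reads divided by a size factor), in 1 table per line, each beside the same WT-TRAMP libraries. In those libraries 30.9% to 34.5% of genes had identical recovered reads in both tables, so each gene's shift between tables was also computed (under 0.1 on the log2 scale for 89.7% of genes). The authors' comparison tables hold shrunken fold changes and s-values and were not used.

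Deposited values were divided by the smallest step of each column, which gave whole reads (tolerance 0.001). The 6 libraries held 9454816 to 12667015 reads. Reads were scaled jointly by the median of ratios, genes with a mean of at least 10 were kept, and log2(reads + 1) was tested with limma 3.58.1 (trended empirical Bayes, two-sided, Benjamini-Hochberg over 15720 genes, threshold 0.05) in R 4.3.3. The pseudocount of 1 understates differences of low genes. edgeR 4.0.16, DESeq2 1.42.0, other scalings, pseudocounts and minimum means, array weights, a correction for the table shift, 9 libraries with a shared spread, and leaving out each library were alternatives; leaving out libraries 5 and 9 together was chosen after seeing the data. Methods were tested on simulated reads with known changes and a spread fixed in advance, which does not measure error or power in these libraries.

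Named genes were Elac2, 4 proteins the study discusses, the genes the study discusses and, as none passed the threshold, the 12 in each direction with the smallest unadjusted p among genes whose mean reached 50, whose lines did not overlap and whose table shift was under 0.25, without code-named models. In each list, members with a mean of at least 50 and the largest differences were named, beside most of those without overlap; some members are not reported here. The members and lists were chosen with earlier results of these data known. Coordinates are GRCm38, and promoters, from 250 bases before to 50 after a gene start, are from RefSeq. Shared sequence is the percent of a gene's 31-base words found in another gene. Intervals and the floor of 3 reads per library cover counting error or the spread between libraries only.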

Additional observations from a re-analysis of the deposited data

How the results depend on the processing

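The number of genes past the adjusted threshold was 0 in limma and 17 in DESeq2. It was 2 with array weights (Gm20236 and Gm38378, each sharing 100% of its words with another gene). Without 1 library it was 0 to 1, the 1 being 2210418O10Rik without library 4, a gene that shares 100% of its words with Gm14296. The other alternatives run gave 0. The Elac2 difference of −0.13 turned to 0.050 with total-read scaling and ran from −0.20 to −0.02 without 1 library. Total-read scaling also turned Sfpq (0.15), Sema3c (0.076), Unc5c (0.074), Thsd4 (0.11) and Runx1t1 (0.14). Array weights turned Sfpq (0.031) and Sema3a (−0.10), and the correction for the table shift turned Sfpq (0.0028), Slirp (−0.031) and Runx1t1 (0.0049). Slirp was −0.0096 in edgeR and −0.010 in DESeq2. Without libraries 5 and 9, a choice made after seeing the data, the sign turned for Sfpq (0.050), Slirp (−0.24), Hsd17b10 (−0.055), Sema3a (−0.46), Sema5a (0.20), Unc5c (0.10) and Myb (−0.071). Without 1 library, differences ran from −0.078 to 0.060 for Sfpq, −0.15 to 0.27 for Slirp, −0.46 to 0.94 for Sema3a, −0.23 to 0.046 for Sema3c, −1.14 to 0.27 for Sema5a, −0.40 to 0.18 for Unc5c, −0.58 to 0.57 for Thsd4, −0.33 to 0.45 for Runx1t1, −0.63 to 0.33 for Pcdh17, −0.080 to 1.44 for Myb and −3.08 to 0.11 for Cdo1. The cause was not tested. No paired analysis was possible because the column headers carry no replicate number. With 3 libraries per line, the unadjusted 95% interval reached a median of 0.57 to either side on the log2 scale.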
